A study of Sus scrofa with 6 samples.

Results

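The interleukin-1 (IL-1) and NF-kB signalling genes of the pig were followed in fibroblasts and in the induced pluripotent cells made from them. Of 10 names chosen for this group (IL1A, IL1R1, IL1RAP, IL1RN, NFKB1, NFKB2, RELB, NFKBIA, TNFAIP3 and TNFRSF12A), 9 had a row among the 18007 genes of the expression table, matched by gene name. IL1RN had none and was not analysed here. The names were selected on the measured FPKM values of these same 6 libraries, which earlier showed the group lower in the pluripotent cells, so their differences between the groups are given as a description with no test.

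The porcine embryonic fibroblasts (PEFs) were 3 untreated lines, PEF5, PEF7 and PEF8, from the ear tips of embryos at embryonic day 90, with a Large White (in the labels, Longwhite) sire and a Meishan dam. The 3 porcine induced pluripotent stem cell lines (piPSC5, piPSC7 and piPSC8) were each derived from the PEF line whose number they share, with lentiviruses that carry Oct4, Sox2, Klf4 and cMyc under a doxycycline-inducible promoter and the M2rtTA transactivator, and were grown in LF2i medium from colonies picked onto mouse embryonic fibroblast feeders. They depend on doxycycline, and each line was 1 poly-A RNA-seq library. Values are FPKM, fragments scaled to gene length and to the fragments of the library.

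IL-1 alpha is a cytokine that stromal and epithelial cells keep inside the cell and release when they are damaged or stressed. It binds IL1R1, which pairs with the accessory chain IL1RAP and signals through MYD88 and IRAK kinases to the IKK complex. IKK marks the inhibitor IkB-alpha, the product of NFKBIA, for degradation and so frees NF-kB dimers of Rel family subunits, which switch on cytokine genes and also NFKBIA and TNFAIP3, their own inhibitors. A slower, noncanonical branch processes the NFKB2 product and uses RELB, and it is driven by receptors of the tumour necrosis factor family, among them TNFRSF12A, the receptor for the cytokine TWEAK. Fibroblasts are a classical responder to IL-1.

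Libraries held between 11010629 and 17836510 fragments. All 9 fibroblast markers examined were lower in piPSCs (limma, with an adjusted p below 0.05 and a change of 2-fold or more), with a summed level of 5870 to 8280 FPKM in PEFs and 212 to 423 FPKM in piPSCs. The label of the piPSCs was only partly matched by pluripotency markers: NANOG, SALL4, ESRRB, EPCAM and CDH1 stayed at or below 0.113 FPKM in every piPSC library, SOX2 had 3.01, 2.49 and 0.129 FPKM in piPSC5, piPSC7 and piPSC8, LIN28B had 2.51, 0.281 and 8.9 FPKM, and POU5F1 and LIN28A matched no row and were not analysed here. Line 8 stood apart from the other lines in its Y-linked genes. The study describes all its lines as male. The summed level of 4 Y-linked genes was 39.9 FPKM in PEF8 and 60.8 FPKM in piPSC8, and at most 0.014 FPKM in the other 4 libraries. Values without line 8 are therefore given beside some of the results, and other values also shifted without it. In such bulk libraries fewer cells of a type and less RNA per cell cannot be told apart, and pig fragments cannot be separated here from any of mouse feeder cells.

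The sequences upstream of RELB, NFKB1 and NFKBIA are shown because these 3 of the 8 members whose promoters were examined held a match to the NF-kB consensus around their start. They were read from the Sscrofa11.1 genome of RefSeq and run 5′ to 3′ on the strand of the gene, up to the gene start of the deposited table or, for RELB, up to the RefSeq start that lies before it. Capitals mark matches to the NF-kB consensus.
RELB, chr6:51444465-51444669, plus strand: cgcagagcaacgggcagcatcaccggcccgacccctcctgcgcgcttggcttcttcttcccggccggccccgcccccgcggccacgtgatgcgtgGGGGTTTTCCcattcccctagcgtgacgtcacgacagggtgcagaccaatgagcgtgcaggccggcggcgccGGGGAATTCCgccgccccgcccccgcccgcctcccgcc
NFKB1, chr8:118507053-118507302, minus strand: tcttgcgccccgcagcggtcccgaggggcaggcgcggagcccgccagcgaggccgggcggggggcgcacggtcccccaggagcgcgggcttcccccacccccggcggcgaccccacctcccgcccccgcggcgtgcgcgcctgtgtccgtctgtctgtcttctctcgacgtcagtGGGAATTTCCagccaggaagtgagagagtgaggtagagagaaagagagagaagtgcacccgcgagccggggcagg
NFKBIA, chr7:64507493-64507742, plus strand: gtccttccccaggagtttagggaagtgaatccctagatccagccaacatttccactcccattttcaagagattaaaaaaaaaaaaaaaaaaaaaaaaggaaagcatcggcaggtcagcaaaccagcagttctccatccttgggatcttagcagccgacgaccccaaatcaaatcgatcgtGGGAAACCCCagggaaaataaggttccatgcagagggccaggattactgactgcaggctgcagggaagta

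RELB held 2 matches, GGGGTTTTCC from position -155 to -146 and GGGGAATTCC from -83 to -74, counted from the first base of the gene in the table. NFKB1 held GGGAATTTCC from -75 to -66. NFKBIA held GGGAAACCCC from -70 to -61, which matched on both strands.

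Over windows of 250 bases before to 50 bases after the start, searched on both strands, the NF-kB consensus was present in 3 of 8 members and in 6.98% of the promoters of 16995 genes. The AP-1 site TGANTCA was present in 0 of the 8 members and in 5.61% of promoters, the TATA box TATAAA in 2 members (IL1R1 and NFKB2, both on the other strand) and in 10.1%, and the GC box GGGCGG in 4 members and in 50.9%. No NF-kB match of these members overlapped a match to another of these motifs. RELB, NFKB1 and IL1RAP had windows of 77.7%, 71.3% and 76.0% G and C, above the median of 59.3% over all promoters, while IL1R1 had 39.3% and IL1A 41.3%. The RefSeq annotation places several starts elsewhere. Counted in bases from the start in the table, with negative values upstream, they lie at -100596 for IL1R1, 28125 for NFKB1, 421 for NFKB2, 376 for NFKBIA and -357 for IL1RAP, so the windows of these genes, among them that of IL1R1, depend on the annotation. With the RefSeq starts 4 of the 8 members held the consensus (IL1R1, NFKB2, RELB and NFKBIA) and 3 held the AP-1 site, and the TATA box was found in NFKB1 and NFKBIA in place of IL1R1 and NFKB2. Of the consensus matches shown above, only those of RELB remained. The NFKBIA match was then another one, beginning at -193 from the RefSeq start, and the site shown lay outside that window. A match is a description of the letters and says nothing of binding.

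**Figure D1:**
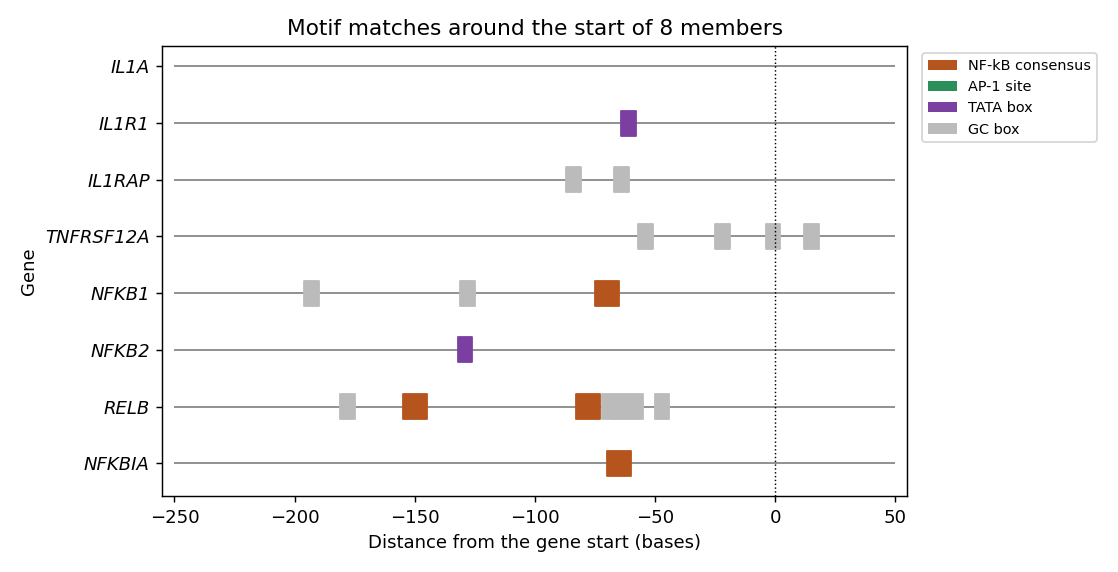
Motif matches in the windows around the start of 8 members; the x axis is the distance from the gene start in bases and each row is 1 gene. NF-kB consensus matches are seen in NFKB1, RELB and NFKBIA, and none of the 4 motifs in IL1A.

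Across the group, each of the 9 members was lower in every piPSC line than in the PEF line it came from. Of these, 8 were at least 2-fold lower in every line, and NFKB1 was the exception. In the limma fit over 12428 genes, 8 of the 9 members met the threshold for lower genes, beside 16.7% of all tested genes (20.2% met it for higher genes, and 36.8% in either direction), and every PEF value lay above every piPSC value for 8 of the 9, beside 26.8% of all tested genes. These counts follow from how the names were chosen and are read no further. Over all genes, 2505 were called higher and 2070 lower, which became 1869 and 2517 after rescaling the libraries to their median ratio and 1986 and 2815 after rescaling to equal sums. The median difference in log2(FPKM + 1), piPSC minus PEF, was -4.14 over the members and 0.20 over all tested genes. By line the members' median was -3.9 in line 5, -3.48 in line 7 and -5.24 in line 8, against 0.21, 0.24 and 0.08 over all tested genes, so line 8 had the deepest values. Without line 8 the median over the members was -3.58 and the same number of 8 members met the threshold. Of the members past the threshold, NFKB2 was the nearest to it at -2.14, and NFKB1 at -0.45 was outside it.

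**Figure D2:**
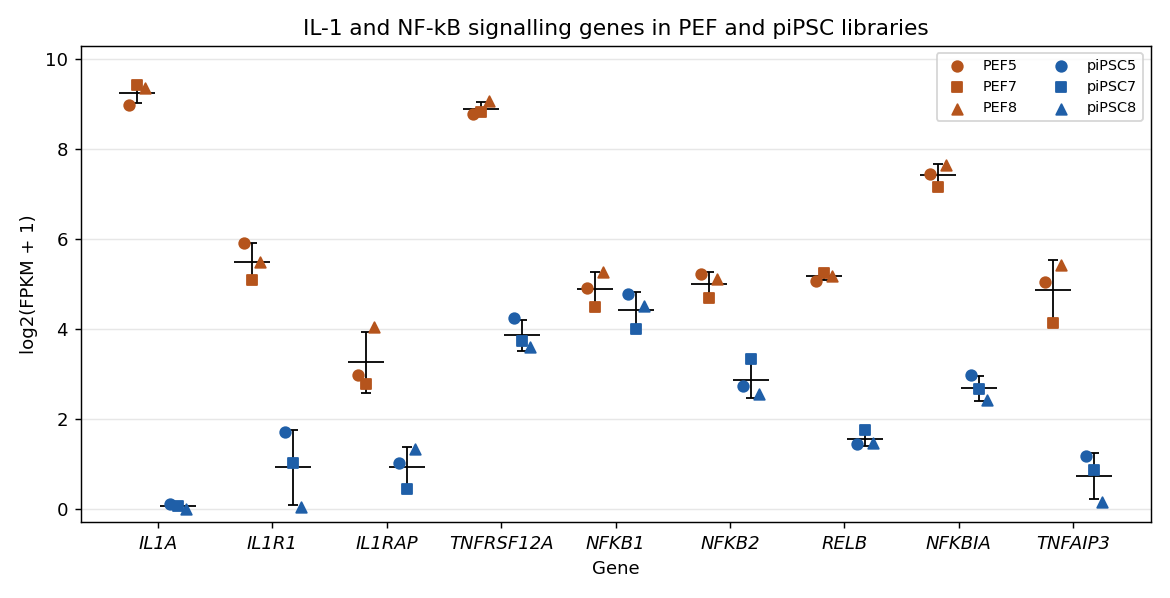
Level of each member, as log2(FPKM + 1) on the y axis, in the 3 PEF libraries and the 3 piPSC libraries; points are libraries, marker shapes the lines, and black lines the mean with 1 SD (n = 3). The PEF and piPSC points are apart for 8 members and interleave for NFKB1.

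Together the 9 genes held 0.247%, 0.25% and 0.302% of all fragments in PEF5, PEF7 and PEF8, and 0.0193%, 0.0137% and 0.0151% in piPSC5, piPSC7 and piPSC8. Without IL1A the PEF shares were 0.155%, 0.126% and 0.183%. IL1A thus made up a large part of the group's fragments in PEFs and next to none in piPSCs. Among PEF libraries, PEF8 was the highest for 5 members and PEF7 the lowest for 6, and among piPSC libraries piPSC5 was the highest for 6 and piPSC8 the lowest for 6.

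IL1A, the ligand (ENSSSCG00000008090, chromosome 3 from 43718427 to 43731120, plus strand), had 508, 685 and 661 FPKM in PEF5, PEF7 and PEF8, and 0.0735, 0.0465 and 0 FPKM in piPSC5, piPSC7 and piPSC8. The groups were far apart, and in PEFs the gene ranked 65 of 18007 by its mean level of 618 ± 95.9 FPKM (SD, n = 3). The piPSC values rested on 2, 1 and 0 fragments. The ratio of fragment rates, PEF over piPSC, was 14000 over the pooled libraries with an exact 95% interval of 4810 to 68100, which covers counting error only. In line 5 it was 6910 (interval 1910 to 57100) and in line 7 14700 (2640 to 582000). In line 8, with no fragment in piPSC8, the lower end of the same exact interval was 3570. With a floor of 3 fragments put in place of 0 in piPSC8, the ratio in line 8 was 4390. On the log2(FPKM + 1) scale the difference was -9.21 (SE 0.17), the fifth lowest of all tested genes. The size of this value depends on the pseudocount, and with 0.1 in place of 1 it was -12.13.

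IL1B, the other main IL-1 ligand, was carried by a row named only by its description (ENSSSCG00000039214) and had 8, 4 and 27 fragments in PEF5, PEF7 and PEF8 and 0 in each piPSC library, under the filter for testing. Its highest level, 0.299 FPKM in PEF8, was far below that of IL1A. Fragments of IL1A outnumbered those of IL1B in every PEF library.

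The receptor IL1R1 (ENSSSCG00000008162, chromosome 3 from 52192909 to 52234138, minus strand), which binds the ligand, had 59.6, 33.1 and 43.9 FPKM in PEF5, PEF7 and PEF8 and 2.25, 1.04 and 0.0261 FPKM in piPSC5, piPSC7 and piPSC8. The groups did not overlap, and piPSC8 was far below the other piPSC lines, with 1 fragment against 118 and 43. The means were 45.5 ± 13.3 and 1.11 ± 1.11 FPKM (SD, n = 3), 41.2-fold apart, with a log2 difference of -4.58 (SE 0.44), or -4.14 without line 8. By line the ratio of levels was 26.5 in line 5, 31.9 in line 7 and 1680 in line 8, where its exact 95% counting interval was 301 to 66400.

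The accessory chain IL1RAP (ENSSSCG00000021206, chromosome 13 from 127933596 to 128075570, plus strand) had 6.84, 5.84 and 15.5 FPKM in PEF5, PEF7 and PEF8 and 1.02, 0.362 and 1.5 FPKM in piPSC5, piPSC7 and piPSC8. Line 8 was the highest of both groups here, whereas for IL1R1 piPSC8 was the lowest library, and the groups did not overlap. The log2 difference was -2.34 (SE 0.40), between means of 9.39 ± 5.31 and 0.96 ± 0.572 FPKM (SD, n = 3). IL1R1 exceeded IL1RAP by 8.72-, 5.67- and 2.83-fold per length in PEF5, PEF7 and PEF8 and by 2.21- and 2.87-fold in piPSC5 and piPSC7. In piPSC8 the ratio was 0.0174, so the order of these transcripts was reversed in that library. The size of that ratio rests on 1 fragment of IL1R1, against 192 of IL1RAP, and the proteins were not measured.

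TNFRSF12A, the TWEAK receptor (ENSSSCG00000027130, chromosome 3 from 39166292 to 39168358, minus strand), had 440, 451 and 542 FPKM in PEF5, PEF7 and PEF8 and 18, 12.3 and 11.1 FPKM in piPSC5, piPSC7 and piPSC8. In PEFs it was second in abundance to IL1A, and its spread there was small (478 ± 55.7 FPKM, SD, n = 3). The piPSC mean of 13.8 ± 3.71 FPKM was 34.6-fold lower, a log2 difference of -5.04 (SE 0.21). By line the fold was 24.4, 36.6 and 48.8.

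**Figure D3:**
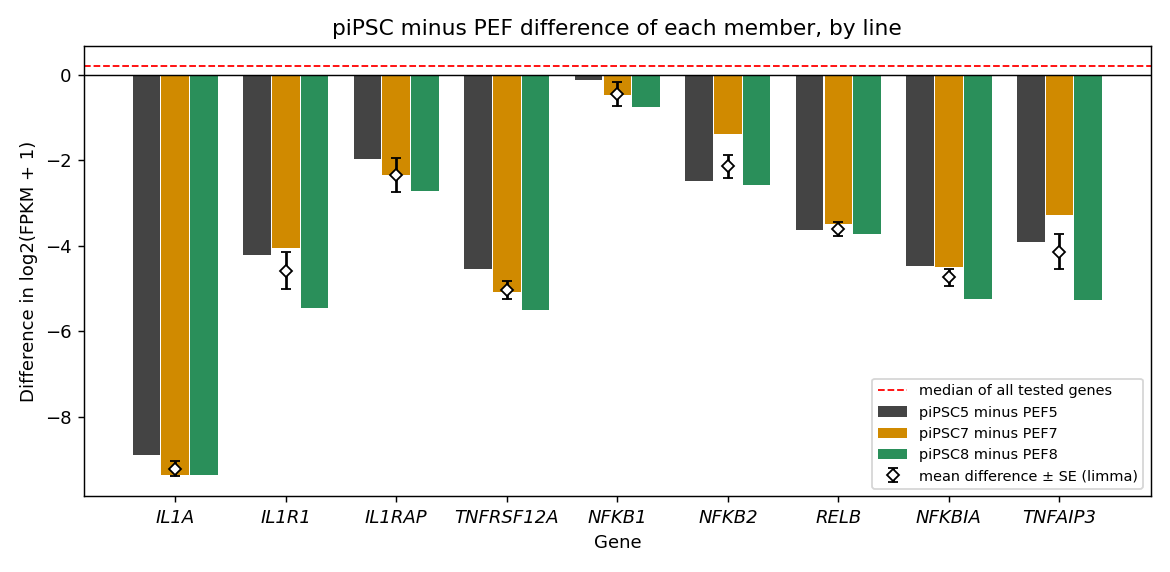
Difference in log2(FPKM + 1), piPSC minus PEF, of each member; bars are the 3 lines, diamonds the mean difference with its SE from limma, and the dashed line the median of all tested genes (0.20). All bars are below 0, from the deepest for IL1A to the shallowest for NFKB1, where the difference of -0.45 has an SE of 0.28.

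Among the Rel subunits the members differed from each other. NFKB1 (ENSSSCG00000030957, chromosome 8 from 118390630 to 118507052, minus strand), which encodes the p105 precursor of the p50 subunit, had 28.9, 21.3 and 37.5 FPKM in PEF5, PEF7 and PEF8 and 26.6, 15.0 and 21.8 FPKM in piPSC5, piPSC7 and piPSC8. The groups overlapped, the means were 29.2 ± 8.14 and 21.1 ± 5.83 FPKM (SD, n = 3), and the log2 difference of -0.45 (SE 0.28) ran from -0.78 to -0.23 under the alternatives tried. It was the most abundant member in piPSCs.

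NFKB2 (ENSSSCG00000010580, chromosome 14 from 113405991 to 113414326, plus strand), which encodes the p100 precursor of the p52 subunit, had 36.2, 25 and 33.7 FPKM in PEF5, PEF7 and PEF8 and 5.63, 9.0 and 4.85 FPKM in piPSC5, piPSC7 and piPSC8. Here line 7 showed the smallest gap, with the lowest PEF and the highest piPSC value, and its fold was 2.78 against 6.43 in line 5 and 6.95 in line 8. The mean log2 difference was -2.14 (SE 0.26).

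RELB (ENSSSCG00000038879, chromosome 6 from 51444715 to 51480319, plus strand), the noncanonical partner of p52, had 32.6, 36.7 and 35.5 FPKM in PEF5, PEF7 and PEF8 and 1.73, 2.38 and 1.75 FPKM in piPSC5, piPSC7 and piPSC8. It was the most even member, with a coefficient of variation of 6.04% in PEFs and 18.8% in piPSCs, and its fold was 18.9, 15.4 and 20.3 in lines 5, 7 and 8. The log2 difference was -3.61 (SE 0.17).

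RELA and REL, the remaining Rel genes, were no members. RELA, which encodes p65, had 25.6, 26.5 and 26.9 FPKM in PEFs and 18.8, 18 and 20.4 FPKM in piPSCs. Its log2 difference of -0.45 (limma adjusted p = 0.0299) was under the 2-fold threshold. The limma adjusted p of RELA was 0.0616 once the line was a replicate block and 0.0868 without line 8. With single libraries left out it was 0.0446 without piPSC8 and otherwise between 0.0615 (without PEF5) and 0.0913 (without piPSC5). REL had 3.44, 1.56 and 5.49 FPKM in PEFs and 1.31, 0.85 and 2.67 FPKM in piPSCs, and its log2 difference of -0.74 did not pass (limma adjusted p = 0.175). 

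The make-up of the Rel family transcripts therefore differed between the groups. As a share of the summed FPKM of the 5 genes, RELB had 28.1 ± 4.29% in PEFs and 3.96 ± 1.14% in piPSCs, and NFKB2 25.1 ± 3.11% and 13.3 ± 5.81% (SD, n = 3). NFKB1 had 23.0 ± 3.91% and 41.6 ± 8.05%, RELA 21.1 ± 2.42% and 38.1 ± 2.83%, and REL 2.69 ± 1.27% and 3.16 ± 1.77%. The groups did not overlap for RELB, NFKB2, NFKB1 and RELA. The sum itself was 127, 111 and 139 FPKM in PEF5, PEF7 and PEF8 and 54.0, 45.2 and 51.5 FPKM in piPSC5, piPSC7 and piPSC8. NFKB1 over NFKB2 was 0.799, 0.851 and 1.11 in PEFs and 4.72, 1.66 and 4.5 in piPSCs, and line 7 again had the smallest shift. These shares rest partly on members chosen for their difference and have no test.

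**Figure D4:**
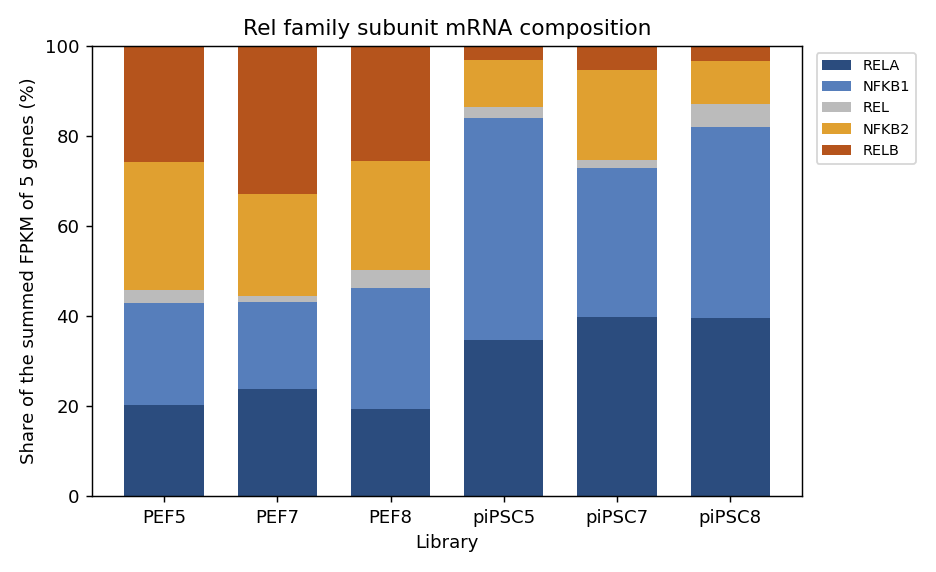
Share of each Rel family gene in the summed FPKM of the 5 genes (y axis, percent) in each of the 6 libraries. RELB and NFKB2 take up about as much as the other genes together in PEFs, whereas RELA and NFKB1 dominate in piPSCs, where RELB has 3.2%, 5.27% and 3.41%.

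NFKBIA, the IkB-alpha gene (ENSSSCG00000001952, chromosome 7 from 64507743 to 64511304, plus strand), had 174, 142 and 201 FPKM in PEF5, PEF7 and PEF8 and 6.85, 5.35 and 4.32 FPKM in piPSC5, piPSC7 and piPSC8. The means of 172 ± 29.4 and 5.51 ± 1.27 FPKM (SD, n = 3) were 31.3-fold apart, and the log2 difference was -4.74 (SE 0.21). Set against RELA, whose product it holds in the cytoplasm, the ratio of NFKBIA to RELA per length was 6.81, 5.35 and 7.45 in PEFs and 0.365, 0.298 and 0.212 in piPSCs. The inhibitor transcript was thus more abundant than that of RELA in every PEF library and less abundant in every piPSC library.

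TNFAIP3, which encodes the ubiquitin-editing inhibitor A20 (ENSSSCG00000004154, chromosome 1 from 26473935 to 26489776, minus strand) had 32.3, 16.5 and 41.9 FPKM in PEF5, PEF7 and PEF8 and 1.24, 0.819 and 0.115 FPKM in piPSC5, piPSC7 and piPSC8. Like IL1R1 it was lowest in piPSC8, with 6 fragments against 88 and 46. The means of 30.3 ± 12.8 and 0.724 ± 0.567 FPKM (SD, n = 3) were 41.8-fold apart, with a log2 difference of -4.14 (SE 0.41), or -3.58 without line 8. The ratio in line 8 was 363, with an exact 95% counting interval of 167 to 991, against 26.1 in line 5 and 20.2 in line 7.

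In PEFs the order of mean levels per length was IL1A, TNFRSF12A, NFKBIA, IL1R1, RELB, NFKB2, TNFAIP3, NFKB1 and IL1RAP. IL1A and TNFRSF12A overlapped between libraries, NFKBIA stood clear of its neighbours, and the 5 genes from IL1R1 to NFKB1 overlapped. In piPSCs the order was NFKB1, TNFRSF12A, NFKB2, NFKBIA, RELB, IL1R1, IL1RAP, TNFAIP3 and IL1A. There NFKB1 overlapped with TNFRSF12A and NFKB2 with NFKBIA. RELB stood clear of NFKBIA but overlapped with IL1R1, and IL1R1, IL1RAP and TNFAIP3 overlapped. The median SD of log2(FPKM + 1) between libraries was 0.27 for the members in PEFs, against 0.26 over all tested genes, and 0.40 in piPSCs, against 0.27.

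The genes with profiles most like 3 of the members were found by the root mean square distance of their log2(FPKM + 1) values, centred on each gene, over the 6 libraries. The search covered 11403 tested genes with a symbol and left out the members themselves. Nearest to IL1A were the chemokine gene CCL20 at 0.38, AMCF-II at 0.74 and CXCL8 at 0.77, against a median distance of 4.71. CCL20 had 459, 351 and 795 FPKM in PEF5, PEF7 and PEF8 and 0.0356, 0 and 0 FPKM in piPSC5, piPSC7 and piPSC8. IL1R1 was nearest to SDC2 at 0.26, HAPLN4 at 0.30 and PDGFRA at 0.32, the last a fibroblast marker with 73.1, 50.7 and 76.9 FPKM in PEFs and 2.75, 0.772 and 0.195 FPKM in piPSCs. TNFAIP3 was nearest to EPHA2 at 0.16, LGALS3BP at 0.19 and SMTN at 0.23. These distances are a description over libraries that fall into 2 groups far apart.

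The other genes of the pathway came from 10 lists of 106 genes sorted by role, of which 91 had a row under their symbol and 81 passed the filter of a mean of 0.5 FPKM. In the limma fit, 39 of the 81 (48.1%) fell in piPSCs by the same threshold, 2 (2.47%) rose, and 40 did not pass, beside 16.7% and 20.2% of all tested genes. The number that rose was 1 without piPSC5, 4 without piPSC8 and 5 without line 8. The median log2 difference was -1.14 over these 81 genes, against 0.20 over all tested genes. The lists were written with earlier results known. The filter uses the mean over all 6 libraries, for these genes as for all tested genes. NLRP3, IL1R2, CD40 and MAP3K8, among others, passed it through their PEF values only, so for them only a fall could be called. Without the list of NF-kB target genes, 23 of 60 fell (38.3%) and 2 rose, with a median of -0.72.

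IL33 and IL18, the IL-1 family ligands that were tested, both fell. IL33, an alarmin of stromal cells, had 34.8, 22.3 and 19.7 FPKM in PEFs and 2.75, 0.175 and 0.135 FPKM in piPSCs, a log2 difference of -3.92 (limma adjusted p = 0.0014). IL18 changed by -2.86 (limma adjusted p = 0.00356), and by -2.08 without line 8. The other 8 names of this list, IL1B and IL1B2, the IL-36 genes and their antagonist, IL37 and IL1F10, matched no row by symbol.

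Of 7 family receptors and binding proteins, 2 were tested. IL1R2, the decoy receptor, had 2.7, 0.48 and 1.2 FPKM in PEFs and 0, 0.13 and 0 FPKM in piPSCs, a log2 difference of -1.14 (limma adjusted p = 0.0375). With the line as a replicate block the limma adjusted p was 0.0665, and the call was also lost without PEF8 (0.0753), without piPSC5 (0.0971), without piPSC7 (0.0654), without piPSC8 (0.0733) and without line 8 (0.111). IL1RL1 had -0.94 and did not pass (limma adjusted p = 0.107), and IL18R1, IL18RAP, SIGIRR and IL18BP were under the filter.

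Downstream of the receptor, 4 of 14 adaptors and kinases fell (28.6%) and 2 rose (14.3%), beside 16.7% and 20.2% of all tested genes. IRAK2 had a log2 difference of -3.28 (limma adjusted p = 0.00158) and MAP3K8, a kinase upstream of ERK, of -2.76 (limma adjusted p = 0.00405). MYD88, the receptor adaptor, had 14.5, 15.3 and 30.7 FPKM in PEFs and 6.49, 6.2 and 9.58 FPKM in piPSCs, a difference of -1.27 (limma adjusted p = 0.0167), which was -0.94 and under 2-fold without PEF8 and had a limma adjusted p of 0.057 without piPSC5. TOLLIP, an inhibitor of this step, had -1.15 (limma adjusted p = 0.00649), and -0.93 without piPSC8. The genes that rose, TAB1 and TAB3, encode partners of the kinase TAK1, with log2 differences of 1.07 and 1.10 (limma adjusted p = 0.00236 and 0.0124). Both were under 2-fold once libraries were rescaled to their median ratio (0.82 and 0.93), TAB1 also under quantile normalization (0.99) and equal sums (0.82), and TAB3 without piPSC5 (0.91).

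In the IKK list, 2 of 8 tested genes fell. IKBKE, a kinase related to IKK, had a log2 difference of -2.86 (limma adjusted p = 0.000586) and the TNF receptor adaptor TRADD one of -1.09 (limma adjusted p = 0.00292). The core IKK genes did not reach the threshold, with log2 differences of 0.74 for CHUK, 0.37 for IKBKB and -0.99 for IKBKG (limma adjusted p = 0.0238, 0.173 and 0.0031), so the first and last passed on p and missed the 2-fold limit. The same held for MAP3K14, which was higher at 0.91, and RIPK1, lower at -0.55 (limma adjusted p = 0.0323 and 0.0383). MAP3K14 had 1.59, 1.76 and 1.45 FPKM in PEFs and 3.48, 5.99 and 2.72 FPKM in piPSCs.

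Among the IkB genes outside the members, 1 of 5 fell. NFKBIZ, a nuclear IkB, had 33.0, 35.6 and 32.1 FPKM in PEFs and 5.5, 5.89 and 5.28 FPKM in piPSCs, a log2 difference of -2.40 (limma adjusted p = 0.000179). Of 9 feedback inhibitors 3 fell (33.3%, beside the same 16.7%). ZC3H12A, an RNase that degrades cytokine transcripts, had a log2 difference of -3.74 (limma adjusted p = 0.000428), TNIP1, a binding partner of A20, of -2.20 (0.000548), and the deubiquitinase CYLD of -1.21 (0.0108). CYLD was under 2-fold without PEF8 (-0.96) or without line 8 (-0.84).

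In the TNF family, 5 of 9 tested genes fell (55.6%, beside 16.7% of all tested genes). TNFRSF1B had 15.4, 24.6 and 53.3 FPKM in PEFs and 0.872, 1.5 and 3.24 FPKM in piPSCs, a log2 difference of -3.39 (limma adjusted p = 0.00228), and line 8 was the highest of both groups. CD40 had -2.51, TNFSF12, the TWEAK ligand of TNFRSF12A, -2.37 and LTBR, a receptor of the noncanonical branch, -2.27 (limma adjusted p = 0.000536, 0.00108 and 0.00198). TNF itself had at most 0.252 FPKM in any library and was not tested.

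Of 9 tested genes for IL-1 maturation and export, 5 fell (55.6%, beside 16.7% of all tested genes). NLRP3, an inflammasome sensor, had 14.3, 8.05 and 16.0 FPKM in PEFs and 0.0825, 0 and 0 FPKM in piPSCs, a log2 difference of -3.70 (limma adjusted p = 0.000321). CASP4 had 7.39, 6.44 and 65.1 FPKM in PEFs and 2.9, 0.458 and 1.73 FPKM in piPSCs, a difference of -2.69 (limma adjusted p = 0.0394), and most of its PEF mean came from PEF8. Its call was lost without any of piPSC5, piPSC7 or piPSC8 (limma adjusted p = 0.0634, 0.106 and 0.0728), without the filter on low values (0.0713) and with voom (0.134), and the difference was -1.66 without PEF8 and -1.73 without line 8. S100A13, which takes part in IL-1 alpha release, had -1.68 (limma adjusted p = 0.00894, and 0.0556 without line 8). The pore protein gene GSDMD had -1.26 (limma adjusted p = 0.0216). The GSDMD call was lost in 5 of the 6 fits that leave out 1 library, with limma adjusted p = 0.0703 without PEF5, 0.0575 without PEF7, 0.051 without PEF8 and 0.0542 without piPSC5, and with -0.91 without piPSC8 and -0.95 without line 8.

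The NF-kB target genes held the largest number of calls, with 16 of 21 tested genes lower in piPSCs, none higher and a median of -2.35. The share called lower was 76.2%, beside 16.7% of all tested genes. Of the genes called lower, CSF2, CSF3, F3, PTX3 and VCAM1 had piPSC means under 0.5 FPKM and passed the filter through their PEF values only. For these genes only a fall could be called, so the share is a description. MMP3, a matrix protease, had 300, 115 and 2340 FPKM in PEFs and 6.22, 0.0285 and 0 FPKM in piPSCs, a log2 difference of -7.80 (limma adjusted p = 0.00298) that was -6.10 without line 8, -6.58 without PEF8, -8.75 without PEF7 and -8.74 without piPSC5. PTGS2, the inducible cyclooxygenase, had 440, 742 and 428 FPKM in PEFs and 4.86, 0.436 and 5.63 FPKM in piPSCs, a difference of -7.09 (limma adjusted p = 0.000414) that was -6.38 without piPSC7. IER3 and the cytokine IL6 had -5.93 and -5.86 (limma adjusted p = 0.000217 and 0.000115). Several of these genes also belong to the fibroblast programme, and the lists do not separate one from the other.

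**Figure D5:**
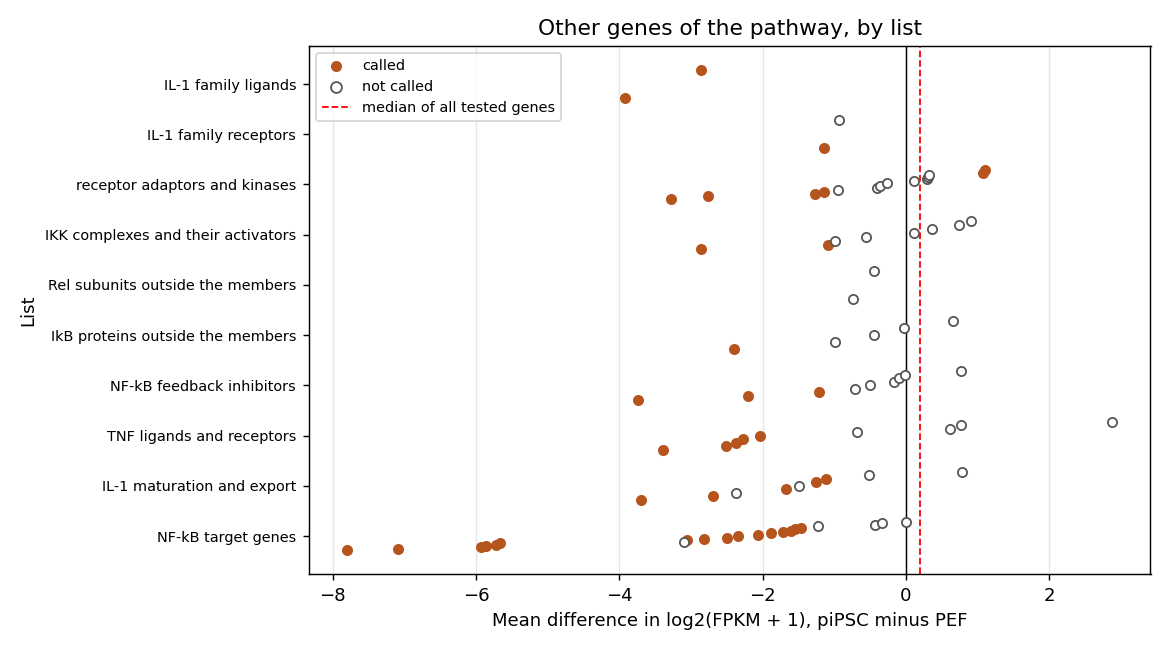
Mean difference in log2(FPKM + 1), piPSC minus PEF, of each of the 81 tested pathway genes (points), by list; filled points passed the limma threshold of an adjusted p under 0.05 and 2-fold, open points did not, and the dashed line is the median of all tested genes (0.20). Filled points lie on the left in 9 of the 10 lists, and the only filled points on the right are TAB1 and TAB3.

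Markers of other cells were followed because leukocytes and keratinocytes also use this pathway. The fibroblast markers were lower in the same libraries as the members, as given above, and their part in the members' values was not tested. Of the leukocyte markers with a row, CSF1R had 0.108 to 0.248 FPKM in PEFs and 0.151 to 0.313 FPKM in piPSCs, ITGAM at most 0.153 FPKM, and CD163 was at 0 in 5 of 6 libraries, while CD14, which fibroblasts can also express, had 9.2, 21.9 and 13.1 FPKM in PEFs and 0.239, 0.11 and 0.238 FPKM in piPSCs. The summed leukocyte level was 11 to 23.2 FPKM in PEFs and 1.35 to 3.29 FPKM in piPSCs. The summed keratinocyte level was 3.04 to 3.40 FPKM in PEFs and 4.74 to 9.18 FPKM in piPSCs. KRT10 carried most of it in PEFs, with 2.92, 2.77 and 3.13 FPKM, and had 5.09, 5.24 and 4.52 FPKM in piPSCs. KRT14 had 0.124, 0.483 and 0.18 FPKM in PEFs, and KRT5 and TP63 had at most 0.0313 FPKM there. In piPSC7, KRT14 reached 3.04 FPKM and KRT5 0.806 FPKM. Summed endothelial markers were 0.513 to 2.59 FPKM in PEFs and 0.0382 to 1.15 FPKM in piPSCs, and chondrocyte markers 0.049 to 0.836 and 0.979 to 30.9 FPKM. HAPLN1 carried the chondrocyte sum of piPSCs with 30.8, 0.732 and 5.22 FPKM in piPSC5, piPSC7 and piPSC8, and the other 5 chondrocyte markers, ACAN and COL2A1 among them, were under 1 FPKM in every library.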

How the data were processed

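Poly-A libraries of 3 PEF and 3 piPSC lines were read from both ends over 150 bp. The authors deposited FPKM values per gene. Their processing notes name HISAT2 2.1.0, Bowtie2 2.2.3, HTSeq 0.6.0 and Sscrofa11.1 without roles, and the counting of shared fragments is not given in the sources used here. Fragments were recovered from the FPKM steps for all 18007 genes. A level of 0 allows up to 3 fragments, and intervals cover counting error only.

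Groups were compared with limma 3.58.1 in R 4.3.3 (eBayes with a trend, two-sided, Benjamini-Hochberg) on log2(FPKM + 1), which understates changes of low genes, for the 12428 genes whose mean FPKM reached 0.5. A gene was called if its adjusted p was below 0.05 and its change 2-fold or more. An exact permutation test of 3 against 3 cannot go below 0.1. The fit was tested on simulated data. PEF and piPSC lines of one number share a donor, as the study describes. Their deviations from their group's mean had correlations of 0.0921, 0.0946 and 0.08, against -0.121 to 0.0553 for lines of unlike number. These values are small and do not establish the pairing, which was taken from the study. The study names an unpaired test in its general statistics section and compared each piPSC line with its own PEF line for gene expression. Here the main fit had no block, and the line entered as a replicate block in an alternative.

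Members and gene lists were chosen with earlier results of these data known. Named were all members, up to 4 called genes of each list with the largest differences, RELA, REL, IL1B and TNF, and the 3 genes nearest to IL1A, IL1R1 and TNFAIP3. TAB1, TAB3, CHUK, IKBKB, IKBKG, IL1RL1, MAP3K14, RIPK1, TNFRSF11B, LTB, TNFRSF21 and TNFSF10 were added after their values were seen. So were CSF2, CSF3, F3, PTX3 and VCAM1. Of these added genes, those other than TAB1 and TAB3 were read in the main fit only. Motifs were searched in Python 3.11.15. The promoter of 1 member is not reported here.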

Additional observations from a re-analysis of the deposited data

How the results depend on the processing

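The counts of calls and the member values were computed under 16 alternatives, of which leaving out both libraries of line 8 was chosen after seeing the data, as was the RefSeq start for promoters. The number of members past the threshold was 8 in all 16, and of 144 member values none changed sign and 19 moved by more than the spread between replicates. The number of pathway genes that fell, 39, ran from 35 (without PEF replicate 8) to 44 (rescaled to equal sums). The number that rose, 2, was 5 with a pseudocount of 0.1, 1 with quantile normalization, 0 after rescaling to the median ratio and 4 with voom on recovered fragments, and between 1 and 4 when single libraries were left out. It was 5 without line 8, and the cause was not tested. Genes called over the whole table numbered 4575, with 4053 to 5233 over the alternatives. Rescaling moved the median log2 difference of all tested genes from 0.20 to -0.01 (median ratio) or -0.06 (equal sums), and the median over the members was then -4.32 or -5.09.

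With the line as a replicate block, 4485 genes were called, 39 pathway genes fell and 2 rose. Of the members and pathway genes followed by value under the alternatives, the pairing changed the call of IL1R2 alone. Of 462 values of these pathway genes, 28 lost their call and none changed sign. Of the 8 members with a promoter examined, 0 had an AP-1 site at the table's start and 3 had one with RefSeq starts. IL1R2 had a value under 14 alternatives, since it was under the filter in the others, and the motif counts had 2. Among the members, levels under 10 fragments were those of IL1A in piPSCs and of IL1R1 and TNFAIP3 in piPSC8. Several piPSC levels of pathway genes, such as IL1R2, NLRP3, IL33 and MMP3, also rested on under 10 fragments.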
